A study of Mus musculus with 14 samples.

Results

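Heat shock proteins and DnaJ co-chaperones are the proteins that fold, hold and refold other proteins, and their transcripts were followed here in mouse epididymal fat after undernutrition in early life. Members were every gene whose symbol begins with Hspa, Hspb, Hspd, Hspe, Hsph or Hsp followed by a digit, or with Dnaja, Dnajb or Dnajc followed by a digit, other than Hspg2 and genes named for an association with an Hspb or HSP protein. The rule found 60 members among 12393 genes with a probe set of their own, 22 of them Hsp genes and 38 Dnaj genes. Each gene was read from its brightest probe set, and 36 members had several. Of the 60, 46 members (16 Hsp and 30 Dnaj) were bright enough to be tested among 7436 genes, which means a mean over all arrays of at least 9.30 on the scale log2(signal + 32), equal to a signal of 599.

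RNA came from 14 ICR mice aged 3 weeks and labelled male, one Affymetrix array for each. The CC mice (n = 5) had dams with free access to chow in pregnancy and lactation. In the UC mice (n = 5) the dam's food was cut by 50% during pregnancy only, and chow was freely available while they suckled. In the UU mice (n = 4) the cut of 50% covered pregnancy and suckling. The UC comparison with CC bears on restriction before birth alone, and that of UC with UU on food during suckling. The labels name no litter and give no genetic change in any group, so the p-values measure the spread between these arrays as if each were an independent animal, and the number of arrays limits the precision.

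HSP70 proteins bind exposed hydrophobic stretches of unfolded chains in a cycle driven by ATP. DnaJ proteins bring clients to HSP70 and start its ATP hydrolysis, HSP110 proteins release the spent nucleotide, and HSP90 takes over clients that are nearly folded. Small heat shock proteins hold unfolded chains without ATP, and separate HSP70, HSP90 and DnaJ proteins serve the endoplasmic reticulum and the mitochondrion. The factor HSF1 drives the cytosolic genes through heat shock elements, repeats of nGAAn in alternating orientation, and the unfolded protein response drives the reticulum genes through the ER stress element.

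Promoter windows of RefSeq on GRCm38.p6, from 250 bases before to 50 bases after an annotated start, were in the table used here for 49 of the 60 members. They are shown for some of the members on which the values below turn and for one member of each kind of element. The windows show how far the members share a known control sequence. Hspa8, Hsp90aa1 and Hspa9 had no window there, so they were not searched. In each line the strand of the gene is read 5′ to 3′, and capitals mark the matched element.
Hsph1 (Entrez gene 15505, chr5:149636287-149636586, minus strand): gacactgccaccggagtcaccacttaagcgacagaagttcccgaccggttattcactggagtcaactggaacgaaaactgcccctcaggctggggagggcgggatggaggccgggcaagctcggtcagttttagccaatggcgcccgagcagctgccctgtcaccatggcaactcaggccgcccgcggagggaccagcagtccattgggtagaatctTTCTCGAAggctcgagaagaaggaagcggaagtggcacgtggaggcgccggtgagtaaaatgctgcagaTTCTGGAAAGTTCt
Dnajb6 (Entrez gene 23950, chr5:29735648-29735947, plus strand): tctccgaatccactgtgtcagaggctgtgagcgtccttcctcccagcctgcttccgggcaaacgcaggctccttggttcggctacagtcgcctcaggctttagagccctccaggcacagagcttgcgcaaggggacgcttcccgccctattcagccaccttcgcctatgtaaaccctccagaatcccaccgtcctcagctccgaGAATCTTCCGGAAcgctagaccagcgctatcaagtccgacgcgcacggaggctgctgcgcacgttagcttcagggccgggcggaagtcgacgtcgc
Hspe1 (Entrez gene 15528, chr1:55087898-55088197, plus strand): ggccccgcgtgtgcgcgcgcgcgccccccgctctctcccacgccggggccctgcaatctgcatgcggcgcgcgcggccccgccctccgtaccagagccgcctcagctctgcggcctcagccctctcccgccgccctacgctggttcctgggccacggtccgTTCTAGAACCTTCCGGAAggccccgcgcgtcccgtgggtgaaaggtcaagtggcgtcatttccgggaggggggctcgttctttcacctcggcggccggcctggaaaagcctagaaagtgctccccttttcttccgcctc
Hspb8 (Entrez gene 80888, chr5:116422815-116423114, minus strand): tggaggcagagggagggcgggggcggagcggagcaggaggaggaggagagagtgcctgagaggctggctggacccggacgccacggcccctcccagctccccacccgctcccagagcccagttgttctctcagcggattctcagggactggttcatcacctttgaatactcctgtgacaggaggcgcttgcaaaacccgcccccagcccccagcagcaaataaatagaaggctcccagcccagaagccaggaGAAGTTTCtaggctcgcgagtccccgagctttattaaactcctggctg
Dnajb4 (Entrez gene 67035, chr3:152193796-152194095, minus strand): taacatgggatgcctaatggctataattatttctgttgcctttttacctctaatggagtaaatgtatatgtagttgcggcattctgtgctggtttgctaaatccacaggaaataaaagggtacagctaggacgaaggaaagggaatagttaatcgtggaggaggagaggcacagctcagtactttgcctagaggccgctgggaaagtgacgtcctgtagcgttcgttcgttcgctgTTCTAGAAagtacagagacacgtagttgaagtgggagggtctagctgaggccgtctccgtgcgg
Hspa1b (Entrez gene 15511, chr17:34959189-34959488, minus strand): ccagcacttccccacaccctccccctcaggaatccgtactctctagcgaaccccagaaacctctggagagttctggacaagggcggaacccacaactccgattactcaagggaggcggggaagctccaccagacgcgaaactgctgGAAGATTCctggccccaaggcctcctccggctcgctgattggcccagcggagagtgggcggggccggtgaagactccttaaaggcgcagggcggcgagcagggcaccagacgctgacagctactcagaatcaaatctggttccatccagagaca
Hspa5 (Entrez gene 14828, chr2:34771840-34772139, plus strand): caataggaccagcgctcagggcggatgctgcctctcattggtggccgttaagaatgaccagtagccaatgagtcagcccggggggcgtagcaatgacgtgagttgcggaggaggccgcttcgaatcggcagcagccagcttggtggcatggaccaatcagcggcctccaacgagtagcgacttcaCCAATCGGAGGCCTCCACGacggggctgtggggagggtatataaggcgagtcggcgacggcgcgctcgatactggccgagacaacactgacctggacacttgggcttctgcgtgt
Hsph1 and Dnajb6 were shown at the first of their windows in the table. In the Hsph1 window the capitals begin 33 bases before the start and again 36 bases after it, and in Dnajb6 they begin 46 bases before it. Hspd1 and Hspe1 lie head to head: the Hspd1 window (chr1:55087883-55088182, minus strand) overlaps the Hspe1 window on the opposite strand, and the same element lies in both.

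Both strands were searched. The 3-unit element GAANNTTCNNGAA, or its reverse complement TTCNNGAANNTTC, was found in 4 of 49 members (8.16%), Dnajb6, Hspd1, Hspe1 and Hsph1, and in 0.662% of 27025 genes with a window. The head-to-head pair GAANNTTC, which the 3-unit element contains, was in 12 members (24.5%) and in 9.04% of genes. The tail-to-tail pair TTCNNGAA, which the 3-unit element also contains, was in 6 members (12.2%) and in 9.60% of genes. Either pair was in 14 members (28.6%) and in 17% of genes. The ER stress element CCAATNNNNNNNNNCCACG was in Hspa5, Hsp90b1 and Dnajc3, 3 of 49 members (6.12%), against 37 genes of the table (0.137%). A match describes letters in a window and is no measure of binding.

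The signal is the deposited MAS5 intensity on a linear scale, on which every array had been scaled to a trimmed mean of about 1500, and a difference is limma's log2 difference ± standard error. Before any result, several arrays stood apart from their group. The arrays CC replicates 2 and 4 and UC replicates 2 and 5 had Gpx5, a marker of epididymal epithelium, at signals from 410 to 1155, against 5711 to 69624 in the other 10, and no UU array was among the 4. CC replicate 2 and UC replicate 5 also carried Xist, at 3981 and 5642 against 481 to 1324 in the other 12, which goes against their label. CC replicates 2 and 5 stood apart in fast skeletal muscle markers, with a mean log2 level over 10 markers of 10.94 and 10.72 against 6.83 to 8.58 in the other 12. The log2 ratio of 3′ to 5′ probe sets of Gapdh and Actb, a sign of RNA length, was 0.71 ± 0.33 (SD, n = 5) in CC, 1.22 ± 0.36 (n = 5) in UC and 1.15 ± 0.64 (n = 4) in UU, with exact two-sided permutation p-values of 0.0794 for UC and 0.238 for UU, each against CC. All 14 arrays carried adipocyte markers, with Adipoq at 25263 to 88737. Their mean log2 level was lower in UU (13.28 ± 0.55, n = 4) than in CC (14.13 ± 0.32, n = 5), with an exact two-sided permutation p of 0.0159, and so were the macrophage and endothelial marker levels at the same p. UC was also above UU in the levels of adipocyte (14.27 ± 0.39 against 13.28 ± 0.55, exact permutation p = 0.0159), macrophage (by 1.01), endothelial (by 0.46) and liver markers (by 1.77, each of these 3 at an exact permutation p of 0.0317), which stands beside every UC against UU value given here. The part of these marker levels in the members' values was not tested.

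Hsph1, an HSP110 gene, was at 1.55 times CC in UC and 1.91 times in UU, and Hspa8, an HSP70 gene, at 1.31 and 1.29 times in its brightest probe set. The small heat shock gene Hspb8 and the DnaJ gene Dnajb4 were at 1.69 and 1.56 times CC in UC and at 1.01 and 1.03 times in UU. With probe sets averaged, the log2 differences of Dnajb4 from CC were -0.14 in UC and -0.80 in UU. That average takes in a second set with a mean signal of only 169, below the filter. No member passed an adjusted p of 0.05 in any comparison with limma and Benjamini-Hochberg adjustment over 7436 genes. The share of all tested genes that passed was 0.0% for UC, 0.0% for UU and 0.0% for both together when each was compared with CC. It was 0.807% (51 genes higher and 9 lower) for UC against UU, and no member was among these 60. At an unadjusted p under 0.05 the members numbered 4 of 46 for UC against CC, beside 8.75% of all genes, and 3 for UU against CC, beside 16.4%. They numbered 8 for UC against UU, beside 17.9%, and 6 for UC and UU together against CC, beside 10.8%. The 4 were Hspb8, Dnajb4, Hspa8 and Hsph1, the 3 were Hsph1, Hspa8 and Hsp90aa1, and the 6 were these 5 genes and Dnajb6, all with differences above 0 from CC. Of the 8, Hspb8, Dnajc1, Dnajb4, Hspd1, Hspb1 and Hspa4 had differences above 0 and Hspa1b and Dnajb12 below 0. As shares of the 46 these were 8.70%, 6.52%, 17.4% and 13%, so no count lay far above its background. With the probe sets of a gene averaged, there was 1 member for UC against CC (8.78% of all genes), 5 for UU against CC (15.5%), 5 for UC against UU (17.8%) and 3 for the pooled comparison (9.87%), each a share of the 46 below that of all genes. Leaving out the 2 arrays with Xist, or the 4 low in epididymal markers, also gave 0 called members in each of the comparisons.

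Counted by sign alone, more members lay above than below CC. In UC against CC 29 of 46 had a difference above 0 (63.0%; all genes 49.5%), with a median of 0.07 beside -0.003 for all genes. In UU against CC 32 did (69.6%; all genes 55.4%), with a median of 0.09 beside 0.05. In UC against UU 19 did (41.3%; all genes 43.3%), with a median of -0.06 beside -0.06. The comparisons of UC and UU with CC share the 5 CC arrays. The medians also moved with the probe sets used. With all probe sets of a gene averaged they were -0.076 in UC and -0.018 in UU, beside -0.043 and 0.019 for all genes. Without the 4 arrays low in epididymal markers the UU against CC median was -0.035, beside 0.028 for all genes.

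**Figure D1:**
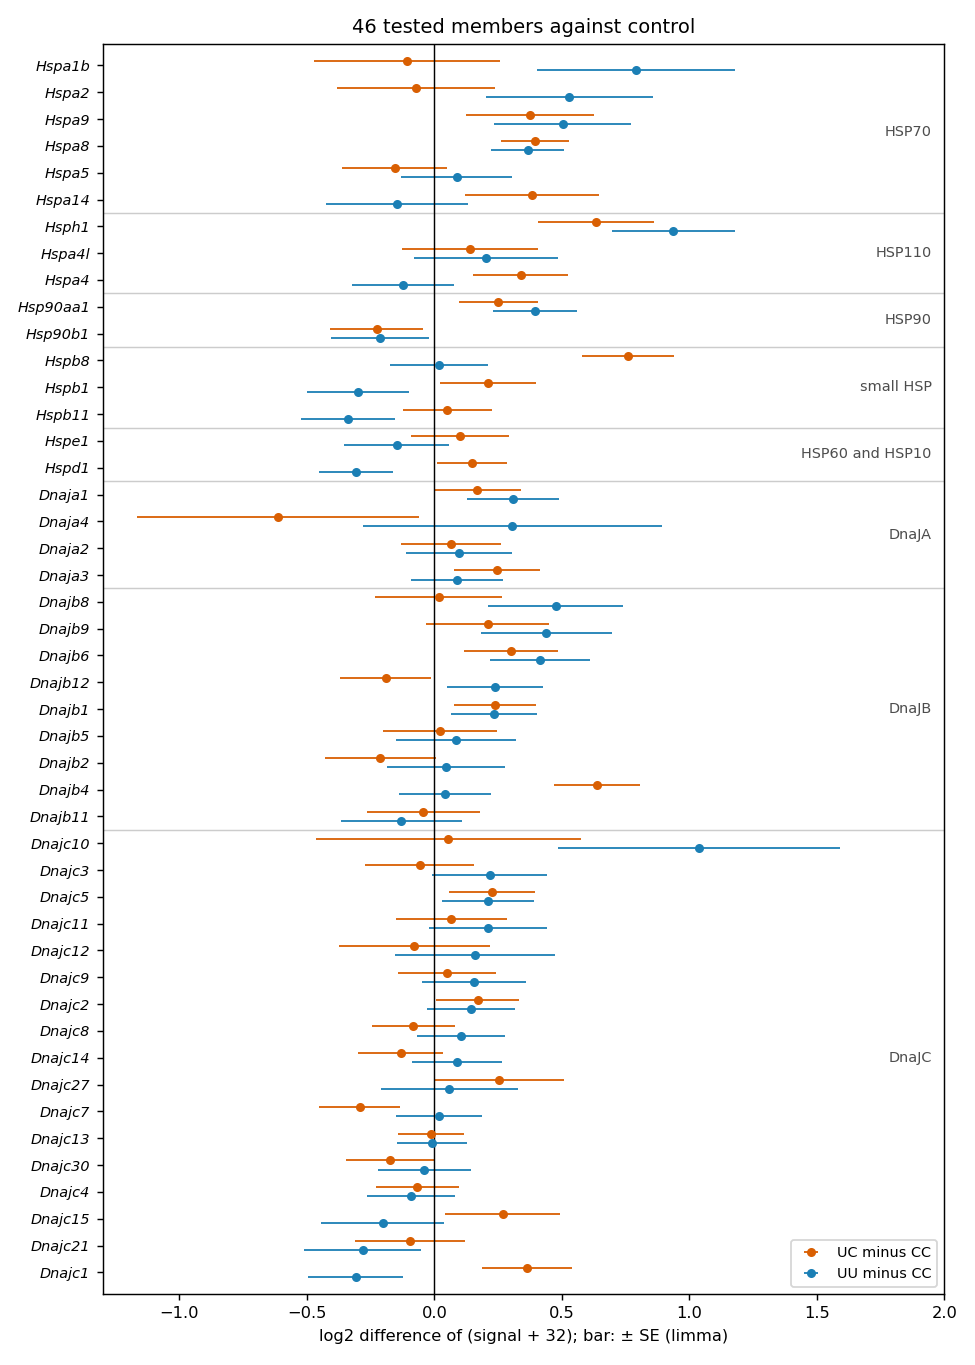
Log2 difference (x axis) of each of the 46 tested members, for UC minus CC in orange and UU minus CC in blue, with standard errors from limma as bars and families separated by lines. Hsph1 lies furthest right of the HSP110 family in both, at 0.63 and 0.94, Hspb8 (0.76) and Dnajb4 (0.64) lie furthest right in UC, and no point passed the adjusted threshold.

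Among the cytosolic HSP70 genes, Hspa8 encodes the constitutive HSC70 and Hspa1b the form induced by stress. In CC replicates 1 to 5 Hspa8 had signals of 34354, 36150, 42222, 33286 and 34285. In UC replicates 1 to 5 it had 46763, 50788, 41139, 47835 and 50265, and in UU replicates 1 to 4 it had 50501, 39230, 54247 and 42769. All but CC replicate 3 of the control arrays lay below every UC and UU array, so CC overlapped the other groups only through that array. UC differed from CC by 0.39 ± 0.13 (adjusted p = 0.518, limma) and UU from CC by 0.37 ± 0.14 (adjusted p = 0.224). The other 3 Hspa8 probe sets had differences of -0.15, -0.25 and -0.05 in UC and -0.28, -0.12 and -0.32 in UU, both against CC, so the positive difference was held by the brightest set alone.

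Hspa1b had signals of 4602, 2561, 6310, 1750 and 4432 in CC, 6122, 1618, 4370, 3605 and 2534 in UC and 5314, 5698, 9718 and 5008 in UU. The lowest 4 were the 4 arrays low in epididymal markers. UU was at 0.79 ± 0.39 against CC (adjusted p = 0.320, limma), at 0.29 without those 4 arrays, and at 0.51 with the level of those markers in the model. Hspa1a, its near-identical neighbour, was below the signal filter, with signals from 184 to 874, and probe sets of such copies can share transcripts. Hspa2, an HSP70 known best from the testis, ran from 859 to 3519 and had the same 4 arrays at the bottom. Hspa14, a ribosome-bound relative, had means of 1618 ± 536 (SD, n = 5) in CC, 2089 ± 611 in UC and 1425 ± 412 in UU.

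The HSP110 protein encoded by Hsph1 is a nucleotide exchange factor of HSP70 and a known heat shock target. Its signals were 2116, 911, 2479, 2171 and 2032 in CC, 2820, 3392, 2891, 2692 and 2649 in UC and 3562, 3324, 4771 and 2824 in UU. Every UC and every UU array was above every CC array, and UC and UU overlapped. UC differed from CC by 0.63 ± 0.23 (adjusted p = 0.518, limma) and UU from CC by 0.94 ± 0.24 (1.91-fold, adjusted p = 0.125), the smallest adjusted p of any member in UU against CC. For both groups together against CC it was 0.79 ± 0.20 (adjusted p = 0.325). CC replicate 2, one of the arrays with Xist, moved these values most. Without it they were 0.39, 0.69 and 0.54, and without the 4 arrays low in epididymal markers 0.34, 0.68 and 0.51. Its dimmer probe set had differences of 0.29 and 0.70, of the same sign. The related Hspa4 had means of 3572 ± 841 (SD, n = 5) in CC, 4480 ± 728 in UC and 3259 ± 687 in UU (n = 4). UC differed from UU by 0.46 ± 0.20 (adjusted p = 0.245, limma), and by -0.39 when its 3 probe sets were averaged. Hspa4l lay close to the filter at 580 ± 166, 640 ± 195 and 654 ± 119.

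Only Hspb8 and Hsph1 of the 46 members had every UC array above every CC array (all genes 1.01%), and no member had every UC array below (all genes 0.78%). Every UU array was above every CC array for Hsph1 and Hsp90aa1 (all genes 4.71%), and every UU array was below for Hspd1 (all genes 3.63%). As shares of 46 these 2, 0, 2 and 1 members are 4.35%, 0.0%, 4.35% and 2.17%, so the UU counts were under the background of all genes.

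Hsp90ab1, whose symbol also fits the rule, had no probe set of its own and was not among the members. Of the HSP90 genes that were, Hsp90aa1 encodes the inducible cytosolic form. Its signals were 16693, 13408, 17432, 14354 and 15619 in CC, 18306, 19787, 21360, 19202 and 14058 in UC and 18151, 19496, 26992 and 17704 in UU. The lowest UU array exceeded the highest CC array by little (17704 against 17432), and UC replicate 5 lay among the CC arrays. The difference for UU against CC was 0.39 ± 0.17 (adjusted p = 0.256, limma), and 0.26 without UU replicate 3. The other 2 probe sets of Hsp90aa1 went the other way, with differences of -0.51 and -0.41 in UC and -0.36 and -0.60 in UU, both against CC. Hsp90b1, the HSP90 of the endoplasmic reticulum known as GRP94, had means of 19220 ± 5626 (SD, n = 5) in CC, 15881 ± 1425 in UC and 15983 ± 625 in UU, and the CC arrays spanned 11722 to 25501, a range that held every other array.

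**Figure D2:**
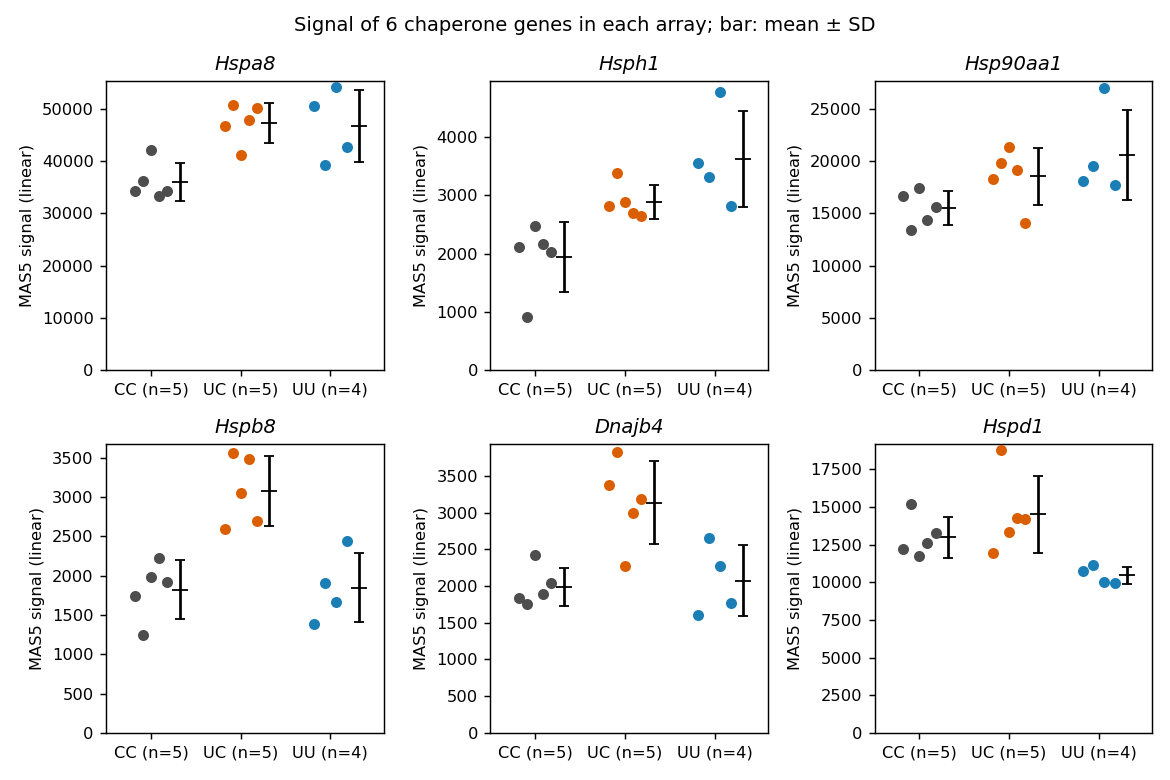
Linear MAS5 signal (y axis, from 0) of 6 members in each array of CC, UC and UU, with the group mean ± SD beside the points. Hsph1 in UC and UU lies above all CC arrays, Hspb8 is higher in all UC arrays (2588 to 3563) than in any other, and Hspd1 is lower in all UU arrays (9940 to 11147) than in any other.

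The small heat shock protein HSPB8 works with the co-chaperone BAG3 in clearing misfolded proteins. Hspb8 signals were 1738, 1239, 1986, 2231 and 1918 in CC, 2588, 3563, 3048, 3488 and 2697 in UC and 1391, 1901, 1667 and 2438 in UU. All UC arrays lay above all arrays of the other groups, and CC and UU overlapped. The difference between UC and CC was 0.76 ± 0.18 (1.69-fold, adjusted p = 0.416, limma), the smallest adjusted p of any member in that comparison. Against UU it was 0.74 ± 0.19 (1.67-fold), with an adjusted p of 0.0809, also the smallest of any member. Centring each array on its median gave 0.86 ± 0.20 with an adjusted p of 0.0460. Other settings of the fit gave differences of 0.62 (without UU replicate 1) to 0.88 (without UU replicate 4). The adjusted p (limma) rose to as much as 0.264 among them. A dimmer probe set had a difference of 0.75 from UU and passed at an adjusted p of 0.0348 when every probe set was tested, and the other had 0.56. The liver marker level was higher in UC (11.62 ± 1.32, SD, n = 5, mean log2 of the 4 tested markers) than in CC (9.71 ± 0.55) at an exact two-sided permutation p of 0.0159, with Alb at 25660 in UC replicate 2 alone against 550 to 3191 elsewhere. Without UC replicate 2 the Hspb8 difference from CC was 0.70. CC replicate 2, the array of lowest Hspb8, was 1 of the 2 arrays with muscle markers, and the Hspb8 difference from CC was 0.63 without it and 0.78 without the other, CC replicate 5. The other small heat shock genes tested were Hspb1, encoding HSP27, with means of 6829 ± 1190 in CC, 7891 ± 1150 in UC and 5650 ± 1458 in UU, and Hspb11, named with them though its product is a subunit of the intraflagellar transport complex, with 1022 ± 214, 1057 ± 205 and 793 ± 103. The difference of Hspb1 between UC and UU was 0.51 ± 0.20 (adjusted p = 0.207, limma), and 0.30 without UU replicate 3, whose signal of 3561 was the lowest of all.

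HSP60 and its lid HSP10, encoded by Hspd1 and Hspe1, form the folding chamber of the mitochondrial matrix. Hspd1 had signals of 12182, 15188, 11716, 12603 and 13273 in CC, 11944, 18749, 13363, 14276 and 14168 in UC and 10731, 11147, 10006 and 9940 in UU. All UU arrays lay below all others, with a difference of -0.31 ± 0.15 from CC (adjusted p = 0.306, limma), and UC was at 0.46 ± 0.15 from UU (adjusted p = 0.134). Hspe1 had signals of 7341, 12026, 6946, 6090 and 8613 in CC, 7504, 12380, 6978, 8864 and 7931 in UC and 6451, 7576, 6560 and 8329 in UU. CC replicate 2 and UC replicate 2 were the highest arrays of their groups for both genes, and the groups of Hspe1 overlapped. The mitochondrial HSP70, Hspa9, had means of 3976 ± 989 in CC, 5338 ± 2268 in UC and 5673 ± 1457 in UU (SD, n = 5, 5 and 4), with 9296 in UC replicate 2. A second Hspa9 probe set of nearly equal brightness (4908 against 4947 on average) had differences of the opposite sign, -0.10 in UC and -0.51 in UU against CC, beside 0.37 ± 0.25 and 0.50 ± 0.27 for the first. Without UC replicate 2 the UC value of the first was 0.15. Of the 7 tested mitochondrial members 6 had a difference above 0 in UC against CC and 3 in UU against CC, with medians of 0.15 and -0.04.

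Among DnaJ proteins of the cytosol, Dnajb4 encodes a type B partner of HSC70. Its signals were 1838, 1750, 2419, 1894 and 2039 in CC, 3381, 3826, 2278, 2996 and 3191 in UC and 1601, 2650, 2271 and 1770 in UU. UC replicate 3 was the sole UC array within the range of the other groups. The difference was 0.64 ± 0.17 for UC against CC (1.56-fold, adjusted p = 0.439, limma) and 0.60 ± 0.18 for UC against UU (1.51-fold, adjusted p = 0.124). Its second probe set, with a mean signal of only 169, had -0.91 and 0.73 for the same comparisons.

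Dnajb6, which encodes a suppressor of protein aggregation, had signals of 6691, 7444, 7065, 6949 and 5912 in CC, 8347, 7988, 8435, 10800 and 6752 in UC and 6614, 9869, 13660 and 7540 in UU. UU replicate 3 was the highest array and the groups overlapped, with 0.41 ± 0.20 for UU against CC (adjusted p = 0.307, limma) and 0.22 without that array. Dnajb1 encodes HSP40, the classic partner of inducible HSP70, and had means of 2260 ± 375 in CC, 2675 ± 484 in UC and 2645 ± 316 in UU. Dnaja1, a type A partner of HSC70, had 7676 ± 1591, 8537 ± 1355 and 9379 ± 1224. All 4 tested DnaJA genes had a difference above 0 in UU against CC (median 0.20; all genes 55.4%). In UC against CC 3 had (median 0.12; all genes 49.5%), and none was at an unadjusted p under 0.05. These counts rest on the brightest probe sets. In UC the dimmer sets had 0.40 for Dnaja1, -0.30 for Dnaja2, -0.80 and 0.19 for Dnaja3 and -0.98 and -0.64 for Dnaja4. In UU they had 0.24, 0.16, -0.46 and 0.16, and 0.05 and -0.12, in the same order. Dnaja4 varied most of them, from 253 to 2493 among the CC arrays. Its lowest signals, 253 and 270, were in CC replicate 2 and UC replicate 5, the arrays with Xist. Over all arrays UC differed from CC by -0.61 ± 0.55 (adjusted p = 0.754, limma). Without the arrays with Xist, Dnaja4 had the smallest adjusted p of any member in that comparison (0.349, limma). The part of the Xist feature in its values was not tested.

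The type C proteins are the most diverse DnaJ class. For Dnajc1, which encodes a reticulum membrane protein that binds BiP, signals were 1566, 2608, 2169, 2042 and 1862 in CC, 3204, 2332, 2448, 3106 and 2120 in UC and 2014, 1862, 1476 and 1260 in UU. Every UC array lay above every UU array, with a difference of 0.67 ± 0.19 (1.59-fold, adjusted p = 0.0999, limma), and CC overlapped both. Without the 3 arrays of highest 3′ to 5′ ratio it was 0.44, and with averaged probe sets 0.35. Hspb8, Hspd1 and Dnajc1 were the 3 members of 46 with all UC arrays above all UU arrays (6.52%; all genes 3.5%), and no member had all UC arrays below (all genes 2.5%). Dnajc7, which encodes a co-chaperone that binds both HSP70 and HSP90, had means of 3038 ± 327 in CC, 2502 ± 522 in UC and 3098 ± 571 in UU (SD, n = 5, 5 and 4). The least variable member was Dnajc13, which encodes an endosomal protein, with 2421 ± 97, 2425 ± 408 and 2408 ± 183 and a ratio of highest to lowest array of 1.48. Over the 17 tested DnaJC genes the median difference from CC was -0.01 in UC and 0.09 in UU, with 0 genes at an unadjusted p under 0.05 in either.

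In their brightest probe sets the reticulum members gave no common direction. Hspa5 encodes BiP, the HSP70 of the endoplasmic reticulum and the standard mark of the unfolded protein response. It had signals of 33532, 18166, 36283, 21860 and 30283 in CC, 19364, 22026, 31153, 24262 and 26378 in UC and 36090, 27774, 22768 and 30188 in UU, and the groups overlapped throughout. Dnajc3, encoding P58IPK, had means of 4450 ± 1324 in CC, 4194 ± 903 in UC and 5077 ± 1168 in UU. Dnajb9, encoding ERdj4, had 6696 ± 1360, 8005 ± 3077 and 9262 ± 3047, with the highest signals, 13248 and 13710, in UC replicate 4 and UU replicate 3, which were among the 3 arrays of highest 3′ to 5′ ratio. Of the 8 tested reticulum members 3 had a difference above 0 in UC against CC and 5 in UU against CC, with medians of -0.05 and 0.15. Hspa5, Hsp90b1 and Dnajc3 were the 3 members with an ER stress element in the window. Their differences from CC were -0.16, -0.23 and -0.06 in UC and 0.09, -0.21 and 0.22 in UU, none at an unadjusted p under 0.05. The second Hspa5 set had -0.50 in UC and -0.20 in UU, and the second Hsp90b1 set had -0.50 and -0.32. The other Dnajc3 sets had -0.21, 0.26, -0.29 and -0.50 in UC and -0.28, -0.06, -0.40 and -0.40 in UU. The UU values above 0 were thus held by the brightest sets alone. Of the 19 tested cytosolic members 15 had a difference above 0 in each of these comparisons, with medians of 0.21 and 0.20, beside 49.5% and 55.4% of all genes above 0. The difference between compartments was not tested, and the count rests on using the brightest probe set of a gene. With probe sets averaged, 6 of the 19 were above 0 in UC and 9 in UU. Hspa8, Hsp90aa1, Dnajb4 and Dnajb6 were among those that turned below 0 in both. The share of all genes above 0 was not counted for averaged sets, where their median was -0.043 in UC and 0.019 in UU. The averages also took in sets below the filter, such as the second Dnajb4 set at a mean signal of 169.

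In 5 tested members the 4 arrays low in epididymal markers were the 4 lowest of all. Dnajc10 encodes ERdj5, a disulfide reductase of the reticulum. Its signals were 15709, 4210, 16449, 3741 and 12499 in CC, 23203, 4345, 13528, 11916 and 3771 in UC and 15516, 16725, 29821 and 13512 in UU. The 4 arrays low in epididymal markers lay at 3741 to 4345 and the other 10 at 11916 to 29821. The highest array was 7.97 times the lowest. Dnajb1, Dnajb11, Hspa1b and Hspa2 also had these 4 arrays below the other 10. That makes 5 of the 46 tested members (10.9%) beside 4.81% of all tested genes. No tested member had them above (all tested genes 1.78%). Of the members below the filter, Hspa1a also had these 4 arrays lowest, whereas Hspa12b and Dnajc28 had them highest. Dnajb11, which encodes the BiP partner ERdj3, was at 1266 to 1672 in the 4 and at 1713 to 2959 in the 10. Dnajb1 was at 1725 to 2244 in the 4 and at 2305 to 3244 in the 10, and the signals of Hspa2 were 859 to 1008 in the 4 and 1384 to 3519 in the 10. Dnajb12, which encodes a reticulum membrane protein, showed no such split and had means of 941 ± 100 in CC, 834 ± 186 in UC and 1120 ± 189 in UU. Since UU holds none of the 4 arrays, the UU against CC difference of Dnajc10 of 1.04 ± 0.55 (adjusted p = 0.351, limma) was taken against a CC group that holds 2 of them. It was 0.28 ± 0.29 without the 4 arrays, and the other 2 Dnajc10 probe sets had 0.38 and 0.21 over all arrays. In whole tissue, fewer cells of a type and less RNA per cell cannot be told apart.

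**Figure D3:**
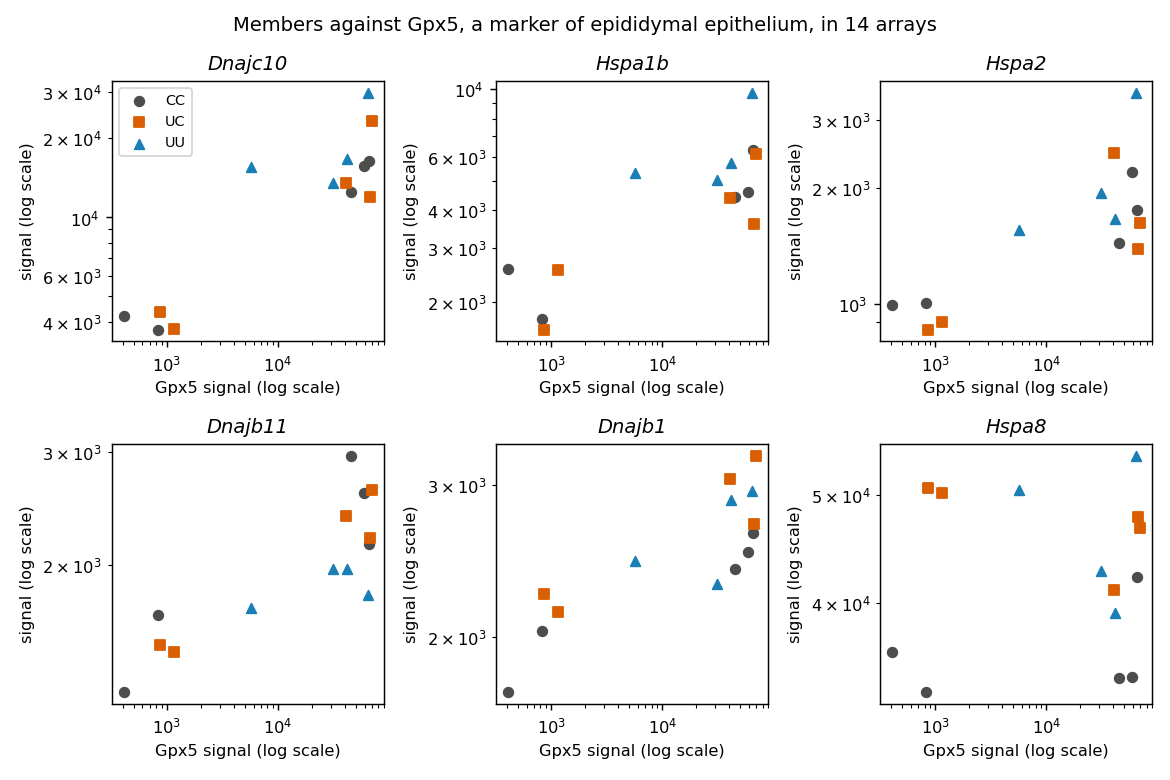
Signal of 6 members (y axis, log scale) against the Gpx5 signal (x axis, log scale) in 14 arrays, with circles for CC, squares for UC and triangles for UU. The 4 arrays at Gpx5 signals of 410 to 1155 have the lowest Dnajc10, Hspa1b, Hspa2, Dnajb11 and Dnajb1, while Hspa8 shows no such split and is at 50788 and 50265 in the 2 UC arrays among them.

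Single arrays held many of the extremes. CC replicate 2 had the lowest signal of 14 of the 46 members (30.4%; 10.2% of all genes), UC replicate 2 the highest of 11 (23.9%; 7.65%) and UU replicate 3 the highest of 10 (21.7%; 16.3%). Among those lowest in CC replicate 2 were Hsph1, Hspb8, Hsp90aa1, Dnaja1 and Dnajb1. CC replicate 2 is one of the arrays low in epididymal markers and with Xist, UC replicate 2 the one with high Alb, and UU replicate 3 the one of highest 3′ to 5′ ratio (2.11 on the log2 scale). The part of these features in the members' values was not tested.

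Probe sets of one gene often went apart. Of 31 tested members with several probe sets, 23 had another that was itself above the filter. At least 1 of these other sets had the opposite sign in 13 of the 23 for UC against CC, in 12 for UU against CC and in 9 for UC against UU. The same share over all genes was not counted, so these numbers are not read as particular to the members. Beside Hspa8, Hsp90aa1 and Hspa9, Dnajb1 showed it for UC against CC, with 0.24 and -0.63, and Dnajb6 with 0.30 against -0.51 and -0.34 for the 2 next brightest. Hsph1 kept 1 sign in both comparisons with CC, as did Dnaja1 (0.17 and 0.40 in UC, 0.31 and 0.24 in UU), and the 3 sets of Hspb8 kept 1 sign in UC against CC (0.76, 0.73 and 0.15).

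**Figure D4:**
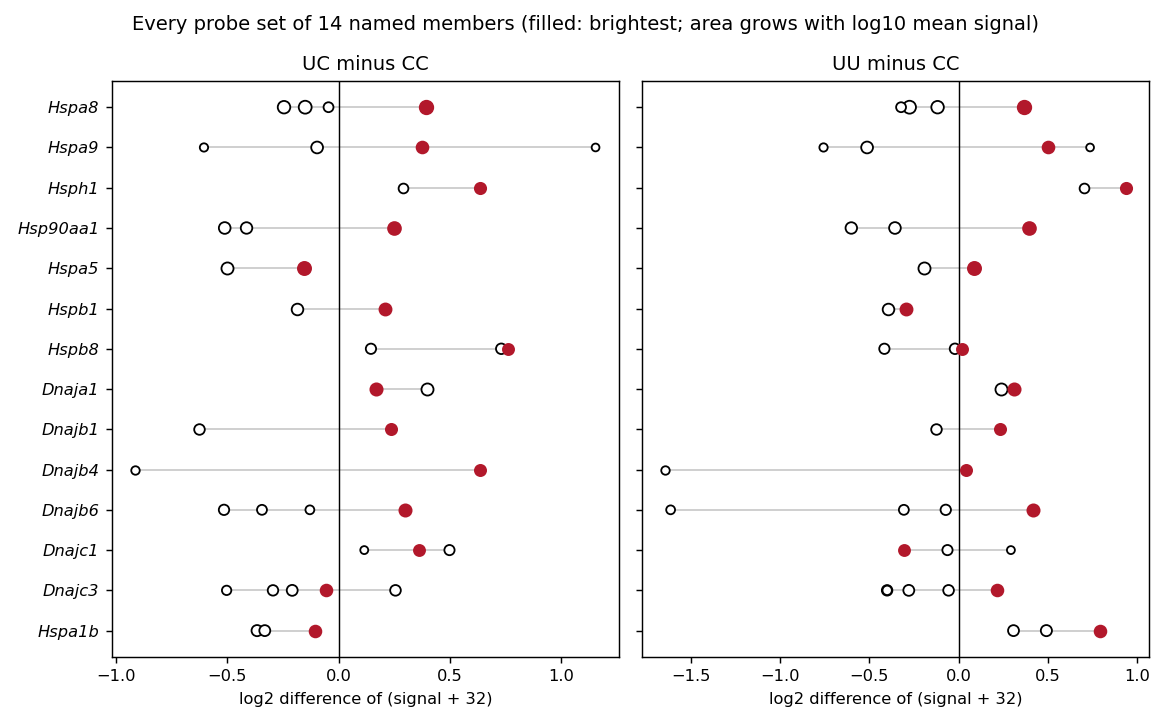
Log2 difference (x axis) of every probe set of 14 named members, for UC minus CC on the left and UU minus CC on the right, with the brightest set filled and point area growing with log10 of the mean signal. Hspa8, Hsp90aa1 and Dnajb6 have only their brightest set above 0 in both panels, whereas both sets of Hsph1 and of Dnaja1 are above 0.

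The other 14 members were below the filter and were not tested: Dnajb3, Dnajb7, Dnajb13, Dnajc5b, Dnajc17, Dnajc18, Dnajc24, Dnajc28, Hspa12b, Hspa1a, Hspa1l, Hspb2, Hspb3 and Hspb7. Their median signals ran from 11.9 for Hspa1l, a testis form of HSP70, to 614 for Hspa1a. Hspb2, Hspb3 and Hspb7, small heat shock genes of heart and skeletal muscle, had medians of 292, 98.9 and 529.

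Genes that work with the members were counted in 4 lists. None of them passed the adjusted threshold in any comparison (limma). Genes named from these lists were picked for the smallest p and are given from their brightest probe set. Their other probe sets and other settings of the fit were not looked at. Of 30 listed cytosolic co-chaperones and heat shock regulators 23 were tested, with 8 differences above 0 and 15 below in UC against CC (median -0.14) and 12 and 11 in UU against CC (median 0.05). For UC against UU these numbers were 10 and 13 (median -0.12). In that list Unc45a, a myosin and HSP90 co-chaperone, had means of 1356 ± 272 in CC, 2286 ± 424 in UC and 2369 ± 631 in UU, with differences of 0.74 ± 0.20 and 0.78 ± 0.21 from CC (adjusted p = 0.439 and 0.132, limma). Chordc1, a further HSP90 co-chaperone, had 2589 ± 473, 3513 ± 552 and 4307 ± 1069, with 0.44 ± 0.18 and 0.72 ± 0.19 (adjusted p = 0.542 and 0.125).

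Of the chaperonin TRiC and prefoldin genes 14 of 15 were tested, with 7 differences above 0 in UC against CC and 6 in UU against CC. For UC against UU 3 were above 0 and 11 below (median -0.12). Cct3, a TRiC subunit, had means of 11394 ± 1314 in CC, 15086 ± 3581 in UC and 15982 ± 2462 in UU. Pfdn5, a prefoldin subunit, had 3205 ± 915, 1656 ± 430 and 3586 ± 2144. Of 27 reticulum folding and unfolded protein response genes 24 were tested, with 8 differences above 0 and 16 below in UC against CC (median -0.19) and 12 of each in UU against CC. In UC against UU 5 were above 0 and 19 below (median -0.16, beside -0.06 for all genes). There Herpud1, a reticulum protein of the degradation pathway, had -0.73 ± 0.19 (adjusted p = 0.0816, limma) and the lectin chaperone Canx had -0.57 ± 0.19 (adjusted p = 0.142). Of 14 mitochondrial folding and quality control genes 11 were tested, with 8 differences above 0 in UC against CC (median 0.17) and 6 in UU against CC (median 0.05). For UC against UU 7 were above 0 and 4 below (median 0.15). The inner membrane protease Yme1l1 had means of 4191 ± 676 in CC, 6519 ± 2237 in UC and 6867 ± 1899 in UU, and the import motor subunit Pam16 had 3177 ± 423, 4553 ± 1056 and 3281 ± 467.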

How the data were processed

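Total RNA was hybridised to single-channel arrays, and the authors deposited a linear intensity per probe set. The submitters' processing notes name GCOS 1.3 and MAS5. Each array's trimmed mean lay between 1500.45 and 1500.57. Of 22690 probe sets, 20380 had 1 gene symbol in the platform annotation and were used, and symbols were updated through a RefSeq gene table. Values were taken as log2(value + 32), the brightest probe set stood for each of 12393 genes, and the dimmest 40% were left out. All 14 arrays entered one limma 3.58.1 model (R 4.3.3, with 11 residual degrees of freedom and a variance trend) with Benjamini-Hochberg adjustment over 7436 genes, and p-values are two-sided. The fit was tested on simulated data, where it recovered 61% to 68% of 2-fold changes and 95% to 98% of 4-fold changes. In each simulation many genes were changed at once and the noise was independent between genes. The comparisons with CC called no gene, so these rates may be too high for them. Smaller changes were not simulated. Named genes were the 6 members of smallest p in each comparison, a panel of core chaperones and the 2 genes of smallest p in each other list. Further members are given where a count, a split of the arrays or a range turns on them, and were chosen after their values were seen. Members, lists and alternatives were chosen with earlier results of these data known. Replicate numbers did not pair the arrays. Proteins were not analysed here.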

Additional observations from a re-analysis of the deposited data

Results flagged for a closer look

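In 60 groups of arrays (20 named, tested members in 3 groups) 3 had one array set apart from the rest by more than Dixon's 95% critical value on the log2 scale, and chance flags about 1 in 20, or 3. Hsph1 in CC replicate 2 had a signal of 910.8 against 2032 to 2479 in the other 4 CC arrays. Hspb1 in UC replicate 3 had 5852 against 8174 to 8577 in the other 4 UC arrays. Hspa4 in UC replicate 5 had 3202 against 4593 to 4956 in the other 4. CC replicate 2 and UC replicate 5 are the arrays with Xist and among those low in epididymal markers, and the part of either in these values was not tested.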

How the results depend on the processing

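With 33 settings other than the one reported, a member was called only in UC against UU: 2 at an adjusted p of 0.1 (Hspb8 and Dnajc1), 1 with median centring (Hspb8, 0.86) and 1 with every probe set tested. Averaging a gene's probe sets turned the sign of Dnajb4 (-0.14), Hspa8 (-0.011), Hsp90aa1 (-0.22) and Dnajb1 (-0.19) in UC against CC and of Hspa8 (-0.088), Hsp90aa1 (-0.19), Dnajb6 (-0.40) and Hspa9 (-0.0082) in UU against CC. It also turned Hspa4 (-0.39) and Dnajc3 (0.023) in UC against UU, and Hspa8 (-0.050), Hsp90aa1 (-0.21), Dnajb4 (-0.47) and Dnajb6 (-0.28) in UC and UU against CC. These averages took in probe sets below the filter, among them the second Dnajb4 set at a mean signal of 169. Without probe sets marked as open to cross-hybridisation Hspa8 was at -0.25, -0.12 and -0.18 in UC, UU and both against CC. With averaged probe sets the members' median became -0.076, -0.018 and -0.062 in UC, UU and both against CC. The median of all genes became -0.043, 0.019 and -0.016. With every probe set the members' median was -0.051 in UC against CC, beside -0.019 for all those tested. Without the arrays low in epididymal markers it was -0.035 in UU against CC, beside 0.028 for all genes. In UC against UU it was 0.059 with median centring, which moved the median of all genes there from -0.06 to 0.07.

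The genes called in UU against CC, 0 as reported, were 11 at an adjusted p of 0.1, 1 with no filter, 3 with the dimmest 60% left out, 2 with median centring, 1 without probe sets open to cross-hybridisation, 12 with array weights, 1 without the arrays low in epididymal markers, 1 without those with Xist, 11 with the epididymal level as covariate and 1 with the 3′ to 5′ ratio as covariate. Those in UC against UU, 60 as reported, were 199, 25 and 100 at an adjusted p of 0.1, with no filter and with median centring, 38 with averaged probe sets, 9 in a fit of these groups only, 1 without the arrays low in epididymal markers, 3 without those with Xist, 2 without the 3 of highest 3′ to 5′ ratio and 115 with that ratio as covariate. Leaving out each array in turn gave 0 to 3 and 0 to 108, with 0 in the latter without UC replicate 2, UC replicate 4 or UU replicate 1. With the replicate number as a block (replicate block) 7 and 94 genes and 0 members were called. The deviations of 13 pairs of arrays sharing a number correlated from -0.32 (CC and UC replicate 5) to 0.49 (CC and UC replicate 3), and since not every pair was above 0.1 the numbers were not taken as pairs. The cause of these shifts was not tested.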
